A study of Mus musculus with 6 samples.

Results

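The genes of the T cell receptor complex and of the T lineage were taken from the deposited count table by their symbols: the CD3 chains Cd3d, Cd3e, Cd3g and Cd247, the kinases Lck and Prkcq, the transcription factors Tcf7 and Lef1, and the cytokine receptor chain Il7r. All 9 had a row among the 23412 rows of the table, and all 9 were among the 18767 genes that passed the low-count filter. Each of them had at least 14 counts in every library. They were picked by symbol, with earlier results of these data known.

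The T cell receptor recognises peptides on MHC molecules, and it signals through the CD3 chains, whose cytoplasmic tails carry tyrosine motifs. The kinase Lck phosphorylates those motifs, Zap70 binds them and passes the signal on through the adaptor Lat, and protein kinase C theta, the product of Prkcq, links the receptor to NF-kB. TCF-1 and LEF-1, encoded by Tcf7 and Lef1, are related DNA-binding proteins that direct T cell development, and the interleukin 7 receptor alpha chain, encoded by Il7r, supports survival of naive T cells. Germinal centres hold follicular helper T cells beside B cells, and a gate on B220, GL7 and Fas is meant to collect the B cells. Lck, Lef1 and Il7r are also used by B cells at some stages.

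Control mice carried Cg1-cre(+/-), a Cre allele driven from the immunoglobulin gamma 1 constant region locus, and the DAF-TM mice carried the same allele together with R26-DAF-TM(fl/fl), a Cre-dependent cassette for the complement regulator DAF (CD55) at Rosa26. Cre was thus present in both groups, and the controls are written as DAF-Tg(+/+) in the treatment protocol. All mice had been given sheep red blood cells intraperitoneally, and spleen cells were sorted on day 10. The labels give neither age nor sex, nor whether a library held 1 mouse or several. The p-values thus refer to the spread between libraries, which for most genes was largely pooled over genes. Of 3 replicates per group, the columns of DAF-TM replicates 2 and 3 held the same value in each of the 23412 rows. They were counted once, as DAF-TM library 2, which left 3 control and 2 DAF-TM libraries.

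Total counts ran from 7257339 to 12783965 per library, and a count of 0 would allow up to 0.413 CPM in the shallowest library (3 counts, counting error only). The targeted gene separated the groups, with Cd55 at 23.5 to 34.4 normalised CPM in the controls and at 713 and 726 in the DAF-TM libraries. The libraries were of mixed sex: control library 1 and DAF-TM library 2 held Xist at 744 and 797 CPM with at most 1 Y-linked count, control libraries 2 and 3 held Y-linked transcripts at 653 and 483 CPM, and DAF-TM library 1 held both, at 291 and 284 CPM. Defining markers of B cells and germinal centre B cells were abundant in every library, with Cd79a at 1308 ± 48.3 CPM in the controls (SD, n = 3) and 1318 ± 167 in the DAF-TM libraries (SD, n = 2), and Bcl6 at 293 ± 18.1 and 226 ± 17.5.

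Prkcq, Tcf7 and Cd3d rose in the DAF-TM libraries, by 3.32-fold, 2.58-fold and 2.87-fold, and none of the 9 genes fell. In bulk libraries, more cells of a type and more RNA per cell cannot be told apart. The other CD3 chains, Lef1 and Il7r had positive log2 fold changes that did not pass the test, from 0.69 for Lef1 to 1.22 for Il7r. Lck stood apart from them in level and in direction, at 262 ± 19.8 CPM in the controls (SD, n = 3) and 219 ± 7.3 in the DAF-TM libraries (SD, n = 2). Values per library are normalised CPM, the read counts scaled to a common library size. Those of Xist and of Y-linked, olfactory and vomeronasal genes are plain CPM of the total counts. The test was edgeR's quasi-likelihood test with adjustment over all 18767 genes at a threshold of 0.05. In that test 0.373% of all genes were called higher, and 3 of the 9 genes were.

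**Figure D1:**
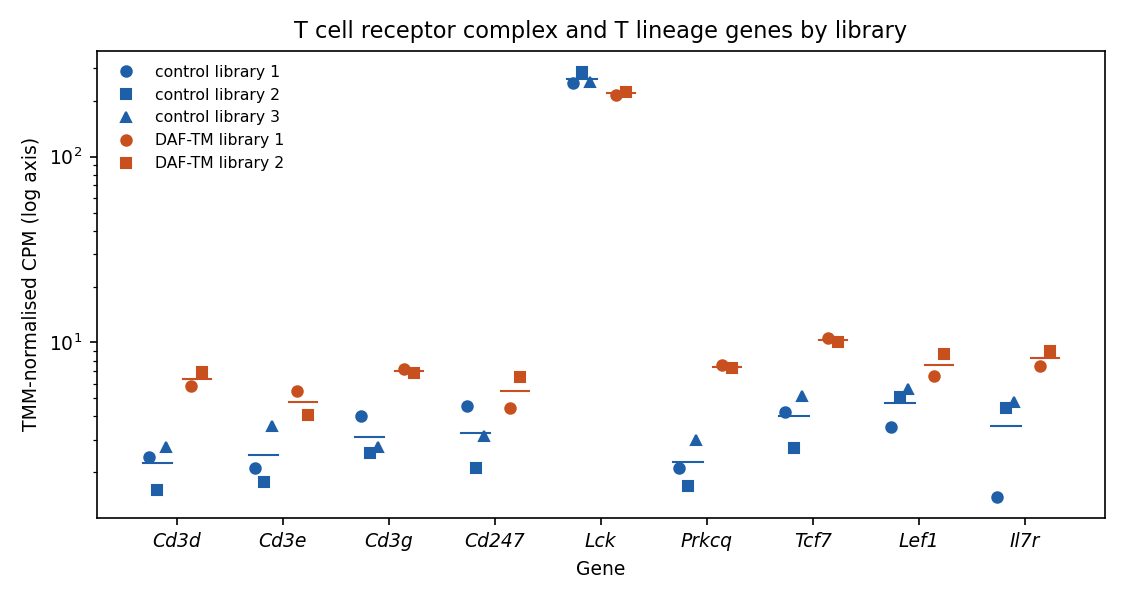
Normalised CPM (log axis) of the 9 genes in each library, blue for the 3 control and orange for the 2 DAF-TM libraries, with a line at each group mean. The 8 genes other than Lck lie between 1.48 and 10.6 CPM, while Lck lies between 213 and 285 CPM.

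Among the CD3 chains, Cd3d, the delta chain, stood at 2.44, 1.61 and 2.73 CPM in control libraries 1 to 3 and at 5.86 and 6.94 CPM in DAF-TM libraries 1 and 2. Both DAF-TM libraries lay above every control, and the log2 fold change was 1.52 (SE 0.39, edgeR adjusted p = 0.0293). These levels rest on 19 to 23 raw counts per control library and on 65 and 82 in the DAF-TM libraries.

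Cd3g, the gamma chain, stood at 4.03, 2.55 and 2.73 CPM in the controls and at 7.21 and 6.85 CPM in the DAF-TM libraries. The groups did not overlap here either, but the log2 fold change of 1.18 (SE 0.37) did not pass (edgeR adjusted p = 0.204). Cd3e, the epsilon chain, stood at 2.12, 1.78 and 3.55 CPM in the controls and at 5.50 and 4.06 CPM in the DAF-TM libraries. Its highest control came close to the lower DAF-TM library, and the log2 fold change was 0.97 (SE 0.41, edgeR adjusted p = 0.73).

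Cd247 encodes the zeta chain, which is also a signalling chain of natural killer cell receptors. Its level was 4.55, 2.12 and 3.14 CPM in the controls and 4.42 and 6.51 CPM in the DAF-TM libraries. Control library 1 lay above DAF-TM library 1, so this was the one gene of the 9 whose groups overlapped, with a log2 fold change of 0.75 (SE 0.38, edgeR adjusted p = 0.867). Exons of Cd247 overlap those of Pou2f1 on the opposite strand, and no source used here gives the strand setting of the counting. Reads of the pair cannot be told apart without it. Pou2f1 stood at 57.1 ± 8.8 CPM in the controls (SD, n = 3) and 52.6 ± 0.905 in the DAF-TM libraries (SD, n = 2).

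Summed over the 4 chains, CD3 transcripts took 8.07 to 13.1 CPM in the controls and 23.0 and 24.4 CPM in the DAF-TM libraries. Within that sum Cd247 gave 34.7% of the 124 counts of control library 1 (95% exact interval 26.4 to 43.7), 26.3% of the 95 counts of control library 2 (17.8 to 36.4) and 25.8% of the 89 counts of control library 3 (17.1 to 36.2), and it gave 19.2% of 255 counts (14.6 to 24.6) and 26.7% of 288 counts (21.7 to 32.2) in DAF-TM libraries 1 and 2. Within each group these intervals overlapped. Between the groups, those of control library 1 and DAF-TM library 1 did not overlap, while the other pairs did. Cd3d gave 18.5% (12.1 to 26.5), 20.0% (12.5 to 29.5) and 22.5% (14.3 to 32.6) in the controls against 25.5% (20.3 to 31.3) and 28.5% (23.3 to 34.1) in the DAF-TM libraries, with intervals that overlap. The intervals cover counting error only.

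Cd3g, Cd3d and Cd3e lie next to each other on chromosome 9 (GRCm38), Cd3g from 44969572 to 44980431, Cd3d from 44981786 to 44987339 and Cd3e from 44998740 to 45009627. Cd3g and Cd3d are transcribed away from each other from starts 1355 bases apart. Cd247 lies on chromosome 1, from 165788681 to 165877277.

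Of the 2 kinases, Prkcq, on chromosome 2 from 11172108 to 11301222, showed the largest fold change of the 9 genes. It stood at 2.12, 1.70 and 3.001 CPM in the controls and at 7.58 and 7.27 CPM in the DAF-TM libraries. The DAF-TM libraries lay close together and far above the highest control, and the log2 fold change was 1.73 (SE 0.38, edgeR adjusted p = 0.00342).

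Lck, a Src family kinase on chromosome 4 from 129548344 to 129573641, was at a level far above that of the CD3 chains it phosphorylates. It stood at 249, 285 and 252 CPM in the controls and at 213 and 224 CPM in the DAF-TM libraries. Both DAF-TM libraries lay below every control, but the difference did not pass (log2 fold change -0.26, SE 0.17, edgeR adjusted p = 0.945). Per length, in RPKM (CPM divided by the exon length in kilobases), the control level of Lck was 89.5 ± 6.75 (SD, n = 3). The related kinases Blk, characteristic of B cells, and Fyn, found in B and T cells, stood at 120 ± 9.1 and 27.4 ± 1.95 RPKM in the same libraries.

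Tcf7, on chromosome 11 from 52252371 to 52283014, stood at 4.24, 2.72 and 5.18 CPM in the controls and at 10.6 and 10.1 CPM in the DAF-TM libraries. The groups were well apart, with a log2 fold change of 1.37 (SE 0.33, edgeR adjusted p = 0.013). Its relative Lef1, on chromosome 3 from 131110471 to 131224356, stood at 3.50, 5.10 and 5.59 CPM in the controls and at 6.58 and 8.63 CPM in the DAF-TM libraries. The groups of Lef1 lay close together without overlapping, and the log2 fold change of 0.69 (SE 0.34) did not pass (edgeR adjusted p = 0.854).

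Il7r, on chromosome 15 from 9505788 to 9530176, stood at 1.48, 4.42 and 4.77 CPM in the controls and at 7.49 and 9.05 CPM in the DAF-TM libraries. Control library 1 was low against the other controls, at 14 raw counts, and both DAF-TM libraries were above all of them. The log2 fold change was 1.22 (SE 0.35, edgeR adjusted p = 0.102).

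Per length, the order of the control levels after Lck was Tcf7 at 1.54 ± 0.474 RPKM, Cd3d at 1.24 ± 0.318, Cd3g at 0.948 ± 0.247, Il7r at 0.763 ± 0.387, Cd247 at 0.614 ± 0.229, Cd3e at 0.609 ± 0.23, Lef1 at 0.538 ± 0.125 and Prkcq at 0.321 ± 0.0939 (SD, n = 3). Apart from Lck and Tcf7, no 2 neighbours in this order differed by more than the sum of their SDs. In the DAF-TM libraries Tcf7 stood at 3.93 ± 0.131 RPKM and Cd3d at 3.53 ± 0.418, followed by Cd3g at 2.15 ± 0.0788, Il7r at 1.77 ± 0.237, Cd3e at 1.17 ± 0.25, Prkcq at 1.05 ± 0.0302, Cd247 at 1.03 ± 0.278 and Lef1 at 0.865 ± 0.164 (SD, n = 2). There Lck, Cd3d, Cd3g and Il7r each differed from the next by more than the sum of the SDs, while Tcf7 and Cd3d, and the neighbours from Cd3e to Lef1, did not. Prkcq moved from the last place among the 9 to the seventh, ahead of Cd247 and Lef1.

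Of the 9 genes 7 had both DAF-TM libraries above all controls, as did 11.3% of all genes tested, and Lck alone had both below, as did 9.02% of all genes and 20.7% of those between 50 and 500 CPM. In the control library and the DAF-TM library that both held Xist with at most 1 Y-linked count, the log2 difference was positive for 8 of the 9 genes, from 0.51 for Cd247 to 2.57 for Il7r, with 1.76 for Prkcq, 1.49 for Cd3d, 1.24 for Tcf7 and -0.16 for Lck. These are 1 library against 1 and carry no test.

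The calls depended on single libraries, while the fold changes of the called genes moved less. The reads of DAF-TM library 1 include Xist as well as Y-linked genes. When this library was set aside, 0.0615% of all genes were called higher and 0 of the 9 were. The log2 fold changes were then 1.70 for Prkcq, 1.33 for Tcf7 and 1.63 for Cd3d. That fit held 1 DAF-TM library. The call of Prkcq was also lost without control library 1 (edgeR adjusted p = 0.0961) and without control library 2 (0.09). That of Tcf7 was lost likewise (0.113 and 0.237). Cd3d missed the threshold whichever of the 5 libraries was omitted (0.114 to 0.391). DESeq2 and limma-voom each called Prkcq and Tcf7 and not Cd3d (adjusted p = 0.115 with DESeq2 and 0.0569 with limma-voom).

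**Figure D2:**
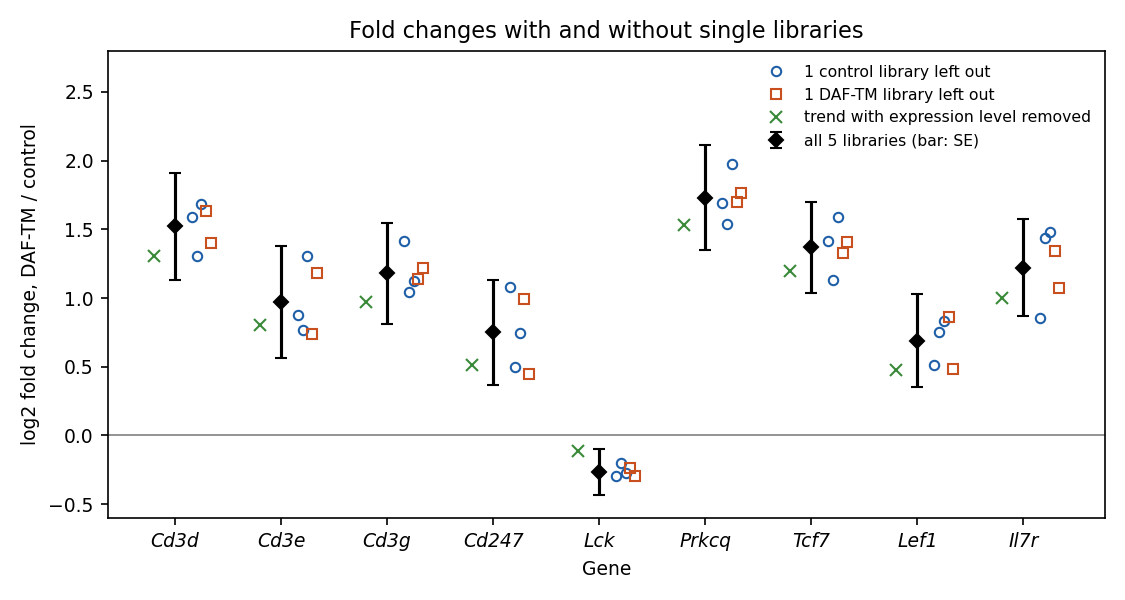
Log2 fold change of DAF-TM over control for each gene: black diamonds with SE for all 5 libraries, open symbols for fits without 1 library, green crosses for the fit with the trend on expression level removed. The 8 genes other than Lck stay above 0 in all of these fits, with values from 0.44 to 1.98, and Lck stays below 0.

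Fold changes in these libraries varied with expression level. Over all genes tested the median log2 fold change was 0.03, but it was 0.24 over the 2436 genes whose mean over libraries lay between 3.40 and 6.55 CPM, the range of the 8 genes other than Lck. In that range 78.8% of the genes had a positive value, 20.1% had both DAF-TM libraries above all controls, and 0.657% were called higher. Over 4591 genes between 50 and 500 CPM, where Lck lies, the median was -0.11. The median of the 8 genes was 1.20, with values from 0.69 to 1.73. Transcripts of olfactory and vomeronasal receptor genes, another set at low level, took 1178 CPM in DAF-TM library 2 and 587 CPM in DAF-TM library 1, against 652 to 836 CPM in the controls. The part of such low-level reads in the values of single T cell genes was not tested.

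With an offset per library that removes the trend with level, chosen after seeing the data, the 8 genes still had positive log2 fold changes, with a median of 0.98. Prkcq then stood at 1.53 (edgeR adjusted p = 0.0515), Tcf7 at 1.20 (0.182), Cd3d at 1.30 (0.179) and Lck at -0.12. In that fit 0.133% of all genes were called higher and 0 of the 9 were. An unadjusted p under 0.05 was found for 6 of the 9 and for 849 of all 18767 genes.

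**Figure D3:**
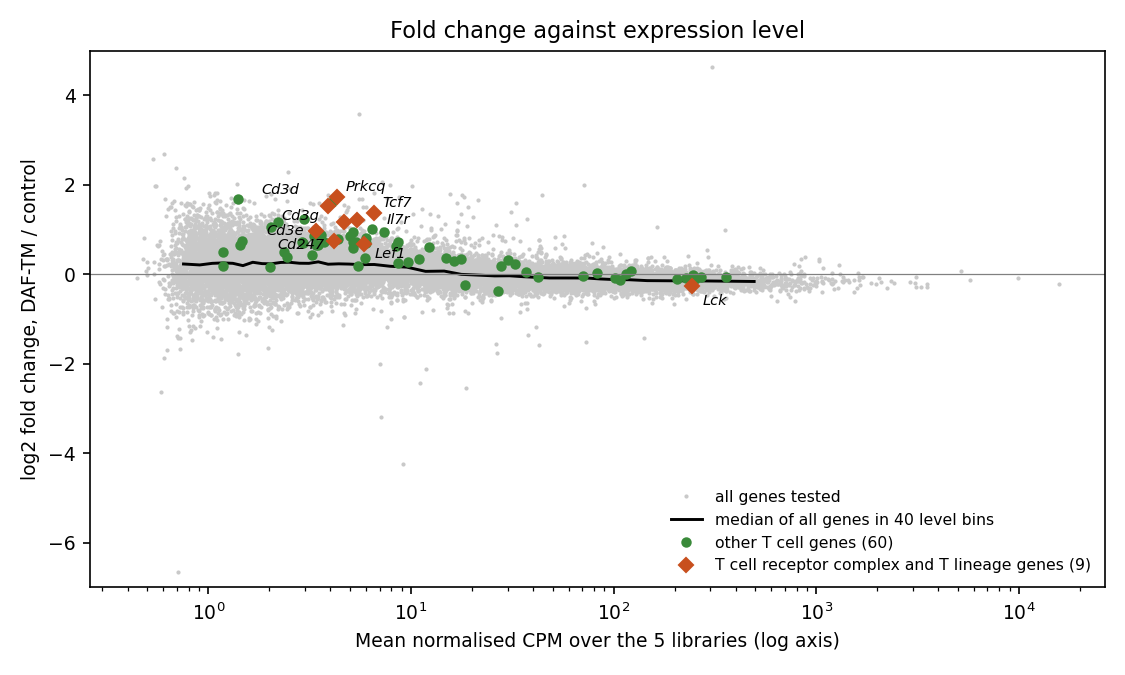
Log2 fold change of DAF-TM over control against mean CPM (log axis) for all 18767 genes tested (grey), the 9 genes (orange) and 60 other T cell genes (green); the black line is the median of all genes in bins of level. The line lies above 0 at the level of the CD3 chains and below 0 at the level of Lck, and 8 of the 9 genes lie above it.

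A wider set of 60 T cell genes was read from the same fit: further signalling components of the receptor, surface molecules, lineage transcription factors and genes of follicular helper T cells. Of these 1 rose, 0 fell and 59 did not pass. A positive log2 fold change was found for 48 of the 60, for 53.9% of all genes and for 78.8% of those at 3.40 to 6.55 CPM. The median of the 60 was 0.41. Both DAF-TM libraries lay above all controls in 27 of them, as in 11.3% of all genes and 20.1% of those at 3.40 to 6.55 CPM. An unadjusted p under 0.05 was found for 19, and for 5.74% of all genes. DESeq2 and limma-voom called 0 of the 60, of which DESeq2 gave 10 no adjusted p. The 39 genes with a mean under 15 CPM over the libraries, a split made after the values were seen, all had positive values, with a median of 0.70, whereas the 21 more abundant ones had a median of -0.04.

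Cd7, a surface protein of T and natural killer cells, was the one that rose. It stood at 2.75, 1.53 and 2.46 CPM in the controls and at 9.02 and 4.65 CPM in the DAF-TM libraries (log2 fold change 1.62, SE 0.39, edgeR adjusted p = 0.0128). Unlike Prkcq and Tcf7 it differed widely between the 2 DAF-TM libraries. The coreceptors also had positive values that did not pass: Cd4, of helper T cells, stood at 4.13, 3.91 and 3.27 CPM in the controls and at 8.30 and 6.26 CPM in the DAF-TM libraries (edgeR adjusted p = 0.55), and Cd8b1, of cytotoxic T cells, at 4.03, 3.48 and 3.82 CPM and at 5.41 and 8.20 CPM (edgeR adjusted p = 0.742). The groups of Cd8a overlapped.

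Downstream of the receptor, 0 of 24 signalling genes passed with edgeR, DESeq2 (which gave 1 of them no adjusted p) or limma-voom, 3 had an unadjusted p under 0.05 with edgeR, and the median log2 fold change was 0.22. Zap70, the kinase that binds the CD3 tails, stood at 2.96 ± 0.0963 and 4.90 ± 1.2 CPM (SD, n = 3 and 2), and the adaptor Lat at 4.32 ± 1.06 and 6.48 ± 1.03. The adaptors Skap1 and Fyb had log2 fold changes of 1.02 and 0.71, the phospholipase Plcg1 0.31, and the costimulatory receptor Cd28, whose groups overlapped, 0.26. A positive value was found for 17 of the 24 signalling genes. The lowest values were -0.24 for Sh2d2a and -0.11 for Malt1, both with groups that overlapped. Among surface molecules the log2 fold change was 0.73 for Cd5, 0.69 for Cd27, 0.79 for Icos and 0.51 for Thy1. Cd2, which B cells also carry, stood at 112 ± 10.7 and 103 ± 17.2 CPM.

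None of 13 lineage transcription factors passed with edgeR, DESeq2 or limma-voom, 3 had an unadjusted p under 0.05 with edgeR, and the median was 0.38. Gata3, the regulator of helper T cell fate, stood at 3.28, 7.39 and 5.32 CPM in the controls and at 11.0 and 9.73 CPM in the DAF-TM libraries (log2 fold change 0.95, SE 0.31, edgeR adjusted p = 0.301). Bcl11b, which commits cells to the T lineage, had a log2 fold change of 0.61 (SE 0.25), Ikzf2 one of 0.62 and Satb1 one of 0.24. Of the 13 factors 11 had positive values, while Tbx21 stood at -0.38 and Tox at -0.06, both with groups that overlapped. Of 10 follicular helper genes 0 passed with any of the 3 tools, although DESeq2 gave 5 of them no adjusted p. With edgeR 4 had an unadjusted p under 0.05, against 5.74% of all genes. The median was 0.55, with P2rx7 at 0.73 and the lowest value at -0.11. Positive values were found for 8 of the 10.

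No gene on the lists around the transcription factors and the cytokine receptor passed. Of 13 tested partners and targets of TCF and LEF proteins 0 passed with edgeR, DESeq2 or limma-voom. With edgeR 1 had an unadjusted p under 0.05, against 5.74% of all genes. The log2 fold changes ran from -0.16 to 0.68, with a median of 0.10. Positive values were found for 8 of the 13, against 53.9% of all genes. The relative Tcf7l2 had a log2 fold change of 0.68 and the cell cycle gene Ccnd1 one of 0.66. Of 14 genes of interleukin 7 signalling 0 passed with the 3 tools, although DESeq2 gave 3 of them no adjusted p. With edgeR 1 had an unadjusted p under 0.05, against 5.74% of all genes. The median was 0.17 and the lowest value -0.18, and 11 of the 14 were positive. The survival gene Bcl2, a target of this pathway in T cells, stood at 14.9, 13.9 and 15.4 CPM in the controls and at 23.7 and 23.9 CPM in the DAF-TM libraries (log2 fold change 0.69, SE 0.21, edgeR adjusted p = 0.164), and Stat5a had a log2 fold change of 0.13.

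**Figure D4:**
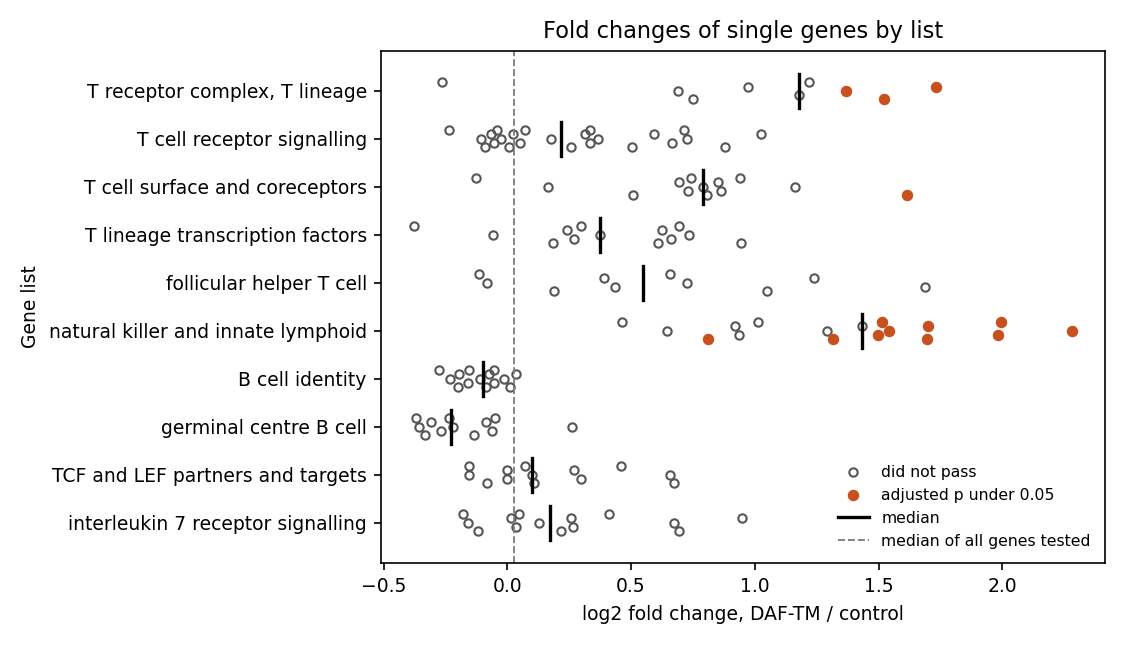
Log2 fold change of each gene by list, filled where the edgeR adjusted p was under 0.05, with a bar at the list median and a dashed line at the median of all genes tested (0.03). The natural killer list has the highest median (1.43), the B cell and germinal centre lists lie at -0.10 and -0.23. Over all genes within the level range of the germinal centre list the median was -0.10.

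As a check on which lymphocytes the libraries could hold, 14 T cell markers summed to 186, 151 and 174 CPM in the controls and to 208 and 184 CPM in the DAF-TM libraries, so the groups overlapped. Cd2 gave 112 ± 10.7 and 103 ± 17.2 CPM of that sum (SD, n = 3 and 2). The 13 other markers, a sum taken without Cd2, came to 48.9 to 63.8 CPM in the controls and to 93.7 and 93.4 CPM in the DAF-TM libraries, and none of them was at 0 in any library. Of all 14, 1 was called (Cd3d), where 0.373% of all genes were called higher, and 10 had both DAF-TM libraries above all controls, as did 11.3% of all genes and 20.1% of those at 3.40 to 6.55 CPM. Markers of natural killer cells moved in the same direction: 7 of 7 rose, and they summed to 25.8 to 40.7 CPM in the controls and to 112 and 65.6 CPM in DAF-TM libraries 1 and 2. The natural killer sum thus differed between the 2 DAF-TM libraries, while the T cell sum without Cd2 was 93.7 and 93.4 CPM. The planned marker list held Cd2, with which the T cell sum was 208 and 184 CPM. Single markers in the sum without Cd2 moved both ways between DAF-TM libraries 1 and 2. Cd28 stood at 12.4 and 6.60 CPM there, and Cd8b1 at 5.41 and 8.20 CPM. Gzma, a granule protease, rose from 4.72 ± 2.66 to 18.3 ± 8.11 CPM (SD, n = 3 and 2, edgeR adjusted p = 1.72e-07). Ncr1, Klrd1 and Il2rb, receptors of natural killer cells, rose as well, with log2 fold changes of 1.54, 2.28 and 0.81. In the wider list of 17 tested natural killer and innate lymphoid genes 10 rose, the others being Klrb1c, Klrk1, Nkg7, Ccl5, Ctsw and Tyrobp, with log2 fold changes from 1.31 for Tyrobp to 1.99 for Ccl5. Prf1, the gene of perforin, had a value of 0.92 that did not pass. DESeq2 called 4 of the 17 and gave 4 no adjusted p, and limma-voom called 6. The part of T cells or natural killer cells in the values of Prkcq, Tcf7 and Cd3d was not tested.

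No B cell gene on the lists passed the test. Of 14 B cell identity genes and of 12 germinal centre genes 0 passed with edgeR, DESeq2 or limma-voom, and their medians were -0.10 and -0.23. With edgeR 0 and 3 of them had an unadjusted p under 0.05, against 5.74% of all genes. Both DAF-TM libraries lay below all controls in 7 of the 12 germinal centre genes, as they did in 9.02% of all genes and in 19.2% of the 6166 genes within the range of level of these 12. Over those 6166 genes the median log2 fold change was -0.10, and 23.4% of the values were positive. Bcl6 had a log2 fold change of -0.37 (SE 0.17). Germinal centre genes without overlap also included Cd83, Nuggc, Mybl1, S1pr2 and Fas, with values from -0.36 for Mybl1 to -0.14 for Nuggc, and Ms4a1 and Pou2af1 were the 2 such B cell identity genes, at -0.28 and -0.16.

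The genes whose profile over the 5 libraries was most like the mean profile of the 9 were Pdcl2, Vash2, Car6, Gdap1l1 and Msi1, out of 14616 genes compared. Likeness was the root mean square difference of log2 CPM after centring each gene, and it ran from 0.07 for Pdcl2 to 0.09 for Msi1. None of the 5 is on any of the T cell lists, their group means lay between 0.72 and 6.61 CPM, and none passed the test.

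The promoter windows of the genes are shown because 3 of the genes rose together and Lck did not. RefSeq (GRCm38.p6) gives 14 windows for the 9 genes, each from 250 bases before to 50 bases after a start. Words of 4 families of DNA-binding proteins were searched on both strands. The ETS words were AGGAAGT and CGGAAGT. For TCF or LEF proteins the search took CTTTGAT and also its variant CTTTGAA. The RUNX word was TGTGGT. For GATA proteins it took AGATAA or else the related TGATAA. No match overlapped a match of another family in these windows. Capitals mark the matches. The windows are those of Cd3d (chr9:44981536-44981835, plus strand), Cd3e (chr9:45009562-45009861, minus strand), Tcf7 (chr11:52282546-52282845, minus strand), Prkcq (chr2:11172132-11172431, plus strand) and the upstream start of Lck (chr4:129573592-129573891, minus strand), each written 5′ to 3′.
Cd3d: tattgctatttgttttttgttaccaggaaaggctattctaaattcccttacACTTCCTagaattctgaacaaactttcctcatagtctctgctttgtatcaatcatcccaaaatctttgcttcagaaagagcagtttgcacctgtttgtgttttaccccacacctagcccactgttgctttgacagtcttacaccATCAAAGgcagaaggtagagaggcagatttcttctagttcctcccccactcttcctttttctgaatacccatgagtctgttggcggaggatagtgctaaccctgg
Cd3e: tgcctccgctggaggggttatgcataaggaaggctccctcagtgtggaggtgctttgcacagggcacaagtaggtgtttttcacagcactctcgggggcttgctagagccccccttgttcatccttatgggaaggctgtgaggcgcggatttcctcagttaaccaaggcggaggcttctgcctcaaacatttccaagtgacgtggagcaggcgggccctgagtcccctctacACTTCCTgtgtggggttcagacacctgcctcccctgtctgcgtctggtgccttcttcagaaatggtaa
Tcf7: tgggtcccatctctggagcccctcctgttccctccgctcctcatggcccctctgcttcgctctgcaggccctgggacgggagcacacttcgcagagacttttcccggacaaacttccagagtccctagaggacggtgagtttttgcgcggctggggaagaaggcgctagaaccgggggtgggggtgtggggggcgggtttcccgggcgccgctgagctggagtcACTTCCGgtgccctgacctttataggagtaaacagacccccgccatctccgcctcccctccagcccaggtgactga
Prkcq: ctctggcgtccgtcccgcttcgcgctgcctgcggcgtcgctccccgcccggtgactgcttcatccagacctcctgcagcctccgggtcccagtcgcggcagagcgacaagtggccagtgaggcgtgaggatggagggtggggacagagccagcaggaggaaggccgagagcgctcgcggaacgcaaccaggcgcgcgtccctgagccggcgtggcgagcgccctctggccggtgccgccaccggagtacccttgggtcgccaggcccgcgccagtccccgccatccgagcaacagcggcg
Lck: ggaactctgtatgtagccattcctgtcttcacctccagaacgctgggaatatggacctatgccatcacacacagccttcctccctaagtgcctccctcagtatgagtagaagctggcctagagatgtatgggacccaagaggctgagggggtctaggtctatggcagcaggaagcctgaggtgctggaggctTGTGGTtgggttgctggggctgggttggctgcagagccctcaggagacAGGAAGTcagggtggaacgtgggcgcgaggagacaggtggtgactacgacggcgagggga

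An ETS word lay in at least 1 window of 7 of the 9 genes, all but Cd3g and Prkcq, and in 15.1% of all 32851 windows, or in 17.0% of the 27025 genes with a window. The word was in Cd3d and Tcf7, which rose, and also in Lck, which did not. For Tcf7 it lay only in the window shown, and the window of its upstream start (chr11:52282965-52283264) held none. No ETS word was in Prkcq, which had the largest fold change. Words of the TCF or LEF type lay in the window of Cd3d alone among the 9 genes, against 9.88% of all genes. RUNX words lay in Lck and Il7r (18.9% of all genes) and GATA words in Cd3g and Lef1 (21.0%). Genes with several windows have more chances of a match, and a match of letters does not show binding.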

How the data were processed

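RNA of sorted splenic germinal centre B cells was measured in 6 samples, 10 ng of total RNA each, with oligo-dT priming per the labels' protocols. The table the authors deposited holds raw counts for each gene symbol, aligned to mm10 per the file headers. HISAT2 and featureCounts are named in the submitters' processing notes, without versions. Annotation and strand setting: not given in the sources used here. Columns were matched to samples by name. From the counts, edgeR 4.0.16 (limma 3.58.1, R 4.3.3) was run on genes kept by filterByExpr, scaled by TMM. Robust quasi-likelihood fits (glmQLFit) were tested two-sided with glmQLFTest, and p-values were adjusted by Benjamini-Hochberg at 0.05. This fit had 3 residual degrees of freedom and median prior degrees of freedom of 1153, so most p-values rest on the spread pooled over genes. An exact permutation of 3 and 2 libraries cannot give a p below 0.1. SE is the log2 fold change divided by the root of the F statistic. RPKM used exon lengths of GENCODE M21 (GRCm38), which may differ from the authors' annotation. A prior count of 0.5 served for differences between single libraries. The procedure was run once on simulated counts for 18767 genes, with 50 genes changed at each of several folds. It called 12% of the 1.5-fold changes, 60% of the 2-fold, 76% of the 4-fold and 100% of the 8-fold changes. A gene that did not pass may thus have changed.

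The 9 genes and the lists (141 entries, all matched, 1 by an older symbol) were chosen with earlier results of these data known. Named were the 9 genes, list genes that passed or that averaged at least 5 CPM with no overlap between the groups, a fixed set of markers, and the 5 genes of most similar profile with a mean of at least 1 CPM. Some genes the rule selects are not reported here. The names of 27 rows had become dates and are not used. DESeq2 1.42.0, limma-voom, other size factors and filters, the replicate number as a block and leaving out each library were the alternatives. An offset by loess (span 0.3) was added after seeing the data.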

Additional observations from a re-analysis of the deposited data

How the results depend on the processing

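With edgeR, 77 of all genes, 3 of the 9 T cell receptor complex and T lineage genes and 1 of the 60 other T cell genes were called. Upper quartile factors gave 39, 0 and 0, the offset by expression level 25, 0 and 0, DESeq2 32, 2 and 0, and limma-voom 51, 2 and 0 (716 to 1077 of all genes, 6 to 8 of the 9 and 11 to 19 of the 60 had an unadjusted p under 0.05 in these 4 fits). With the replicate number as a block, which the labels do not tie to a shared animal or day, the counts were 61, 1 and 0. In that fit 845 of all genes, 6 of the 9 and 15 of the 60 had an unadjusted p under 0.05. Libraries of equal number did not deviate together (r = -0.15 and -0.25 across genes). The deviations of 2 DAF-TM libraries from their own mean mirror each other, so these are not 2 separate checks. The column of DAF-TM library 2 is also that of replicate 3, so its match to control library 2 is arbitrary. Leaving out 1 library gave 14 to 118, 0 to 2 and 0 to 1. Where DAF-TM had 1 library left, it was assumed to vary like the controls. Of 117 values of the 9 genes under 13 alternatives, 96 kept their side of the threshold, 21 lost it, all of them of Cd3d, Tcf7 or Prkcq, and 0 changed sign. Upper quartile factors moved the median of all genes to 0.10. Counts of 14 to 60 per control library limit what can be told of the 8 low genes.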
